A study of Mus musculus with 37 samples.

Results

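The genes Smc1b, Stag3, Rec8, Hormad1 and Hormad2, which build the meiotic chromosome axis, were followed in mouse primordial germ cells (PGCs), from which eggs and sperm later arise. They were taken by gene symbol from the deposited expression tables, in which all 5 of 5 symbols were present among 24318 genes at each stage. DCKO germ cells, labelled Dnmt1 -/-, came from crosses of Oct4-IRES-Gfp; Dnmt1 2lox homozygous females with Blimp1-Cre males. Control germ cells came from the same crosses, and their genotype label is wild type. The labels do not say whether control embryos carried Cre. Oct4-IRES-Gfp marks germ cells with a green fluorescent protein and was used to sort the cells of both groups. Blimp1-Cre removes the floxed part of Dnmt1, which encodes the enzyme that copies DNA methylation at replication, in cells that have expressed Blimp1 (also called Prdm1), germ cells among them. The E10.5 embryos (E stands for embryonic day) gave 3 DCKO libraries, 2 of them female and 1 male, and 4 control libraries, 2 female and 2 male. The E11.5 embryos gave 10 DCKO libraries, 6 of them female and 4 male, and 8 control libraries, 4 female and 4 male. The labels describe 37 samples, and the 12 at E13.5 were not analysed here.

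Cohesin is a ring of proteins that holds sister chromatids together. In dividing body cells the ring contains SMC1A, SMC3, RAD21 and either STAG1 or STAG2. Germ cells that enter meiosis also make SMC1B in place of SMC1A, REC8 in place of RAD21, and STAG3 in place of STAG1 or STAG2. HORMAD1 and HORMAD2 sit along this cohesin axis, where they mark chromosomes that have not yet paired, and HORMAD1 is needed for normal numbers of DNA breaks and for pairing. Mouse germ cells at E10.5 and E11.5 still divide by mitosis, female germ cells enter meiosis some days later, and several germline genes with CpG-rich promoters are known to be held silent by DNA methylation. CpG is a cytosine followed by a guanine, the site that Dnmt1 keeps methylated.

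Promoter sequence is shown first because the study removed the enzyme that maintains methylation at CpG sites, and the genes differ in how many such sites lie before their start. Each sequence is the 250 bases before the gene start on the gene's own strand, from RefSeq (GRCm38.p6, a later build than the mm9 build of the expression values), with each CpG in capitals. All 5 genes matched this promoter set. The first is Smc1b (chr15:85131958-85132207, minus strand), the second Stag3 (chr5:138280259-138280508, plus strand) and the third Hormad2 (chr11:4441083-4441332, minus strand).
Smc1b: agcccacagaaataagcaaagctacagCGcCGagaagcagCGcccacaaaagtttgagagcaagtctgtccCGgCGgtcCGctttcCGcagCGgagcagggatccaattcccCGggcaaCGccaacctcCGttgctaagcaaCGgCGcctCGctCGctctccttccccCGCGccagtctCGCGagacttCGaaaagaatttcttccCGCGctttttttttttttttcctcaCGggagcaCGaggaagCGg
Stag3: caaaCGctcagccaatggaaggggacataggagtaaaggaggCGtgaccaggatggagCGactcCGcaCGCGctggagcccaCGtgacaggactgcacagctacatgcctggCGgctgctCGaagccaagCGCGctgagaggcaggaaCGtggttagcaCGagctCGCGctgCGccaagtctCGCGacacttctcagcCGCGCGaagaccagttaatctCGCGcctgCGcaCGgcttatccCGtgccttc
Hormad2: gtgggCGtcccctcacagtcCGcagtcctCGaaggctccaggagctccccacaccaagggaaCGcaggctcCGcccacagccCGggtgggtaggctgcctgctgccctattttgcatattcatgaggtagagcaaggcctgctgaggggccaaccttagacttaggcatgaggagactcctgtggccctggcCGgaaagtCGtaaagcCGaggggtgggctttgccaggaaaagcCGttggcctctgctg
The Stag3 promoter held 26 CpG sites and the Smc1b promoter 25, more than 90.8% and 89.7% of the 27025 promoters compared. The Hormad2 promoter is shown as a contrast, with 10 CpG sites. The Rec8 promoter (chr14:55617916-55618165, plus strand) also held 10, more than 61.8% of promoters. The Hormad1 promoter (chr3:95559427-95559676, plus strand) held 19, more than 80.4%. The median promoter held 6 CpG sites, with quartiles of 2.00 and 16.0, so all 5 genes lay above the median and 3 of 5 above the upper quartile. An E-box, the letters CACGTG on either strand, was present in the Stag3 and Hormad1 promoters and in 6.05% of all promoters. An E2F site, the letters TCCCGC or GCGGGA, was present in the Smc1b, Rec8 and Hormad1 promoters and in 16.9% of all promoters. These letter matches describe sequence and no factor's binding was measured. Methylation was not part of these files.

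All values are RPKM, a read value scaled for transcript length and for the mapped total of the library, as deposited. RPKM is scaled by length, and levels of different genes are set side by side below on that basis. The RNA was amplified and the gene models and strand use are not stated, so such comparisons between genes are approximate. Dnmt1, the targeted gene, averaged 21.5 ± 7.43 RPKM in DCKO and 90.9 ± 15.1 RPKM in control libraries at E10.5 (SD, n = 3 and 4). Its E11.5 mean was 29.6 ± 16.3 RPKM in DCKO and 130 ± 76.6 RPKM in control libraries (SD, n = 10 and 8), and the groups did not overlap at either stage. The labelled cell type was checked with 12 PGC markers, all 12 of which had a median of at least 1 RPKM at both stages. The mean log2(RPKM + 1) of these markers was 6.57 to 7.26 in the E10.5 libraries and 3.62 to 6.95 in the E11.5 libraries. The 3 E11.5 libraries lowest in PGC markers were male control 3 (3.62), female DCKO 4 (5.26) and male DCKO 1 (5.30). These 3 libraries were also high in markers of other cells: male control 3, female DCKO 4 and male DCKO 1 held 871.5, 385.3 and 480.3 summed RPKM of 8 mesenchyme genes, against a median of 60.5 over the 18 libraries. Their summed gonadal somatic markers (10 genes) were 110.1, 90.8 and 113.2 RPKM, against a median of 9.36. Over the groups at E11.5, summed mesenchyme markers ran from 2.0 to 480.3 RPKM in DCKO and from 26.2 to 871.5 RPKM in control libraries, and no marker of the 3 lists was at 0 in every library. The E11.5 genotype differences and control sex differences of the 5 genes, and several of their correlations, are given below with and without these libraries. The libraries were chosen after seeing the data. Libraries had 9125 to 11095 genes with at least 1 RPKM at E10.5, and 8277 to 13200 at E11.5. Read depth is unknown, since the files hold no counts. The labels do not state that libraries are separate embryos, so p-values measure only the spread among these libraries, and part of it may be technical.

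Transcripts of all 5 genes were already present before meiosis, in an order that was alike at both stages. Stag3 had the highest median level, followed by Smc1b, Hormad1, Rec8 and Hormad2. At E10.5 Stag3 was the highest of the 5 genes in 7 of 7 libraries, and at E11.5 in 12 of 18, with Smc1b highest in the other 6. Smc1b was above Hormad1 in 6 of 7 libraries at E10.5 and in 18 of 18 at E11.5. The lower neighbours were less cleanly ordered: Hormad1 was above Rec8 in 5 of 7 and 15 of 18 libraries, and Rec8 above Hormad2 in 5 of 7 and 12 of 18. Over all 7 libraries at E10.5 the medians were 49.0 RPKM for Stag3, 17.0 for Smc1b, 12.4 for Hormad1, 9.74 for Rec8 and 5.22 for Hormad2. Smc1a was above Smc1b, and Rad21 above Rec8, in every library of both stages.

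**Figure D1:**
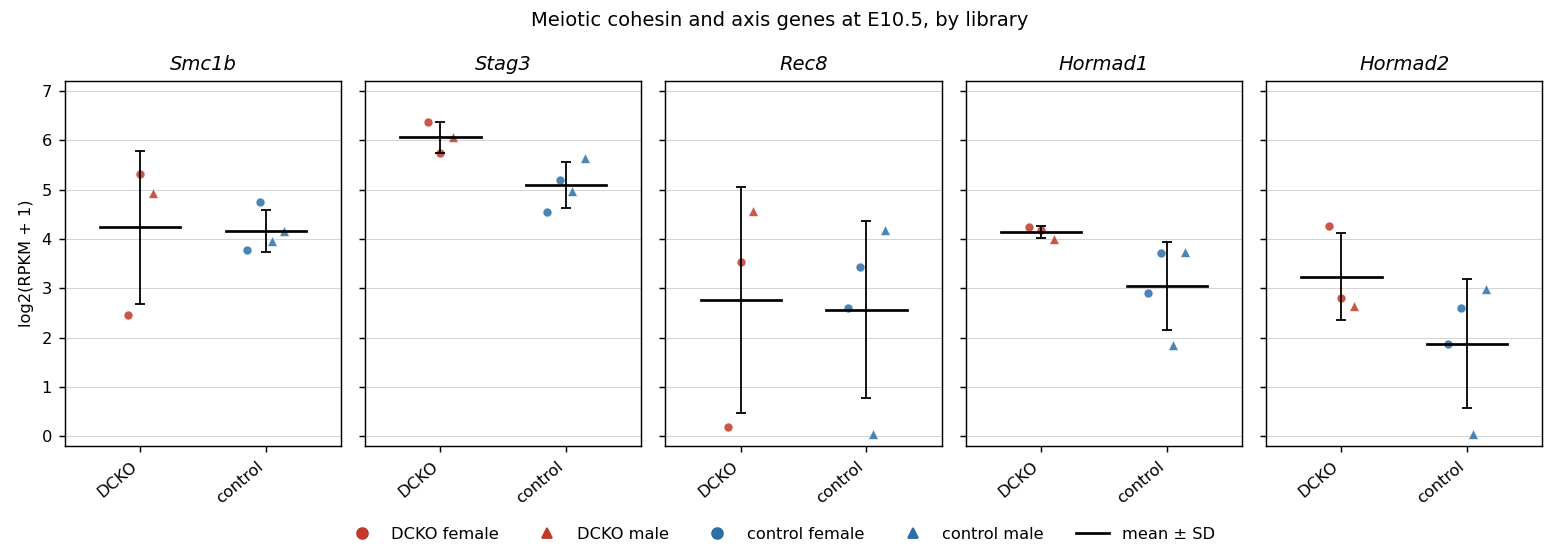
Level of each gene at E10.5 as log2(RPKM + 1), with 1 point per library (circles female, triangles male), DCKO in red and control in blue; bars are mean ± SD over 3 DCKO and 4 control libraries. Stag3 and Hormad1 are higher in all 3 DCKO libraries than in any of the 4 control libraries, while Smc1b and Rec8 overlap.

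At E10.5 the stromal antigen subunit Stag3 and the axis protein gene Hormad1 separated the genotypes, and the other 3 genes did not. Stag3 measured 81.2 and 52.7 RPKM in the female DCKO libraries and 66.0 in the male one, against 22.2 and 35.8 RPKM in female control and 30.4 and 49.0 in male control libraries. The lowest DCKO library was thus just above the highest control library. Stag3 averaged 66.6 ± 14.3 RPKM in DCKO and 34.3 ± 11.3 RPKM in control libraries (SD, n = 3 and 4). The difference of mean log2(RPKM + 1) was 0.97, with a two-sided exact permutation p of 0.0571 over 35 splits, of which the smallest possible p is 0.0286. Hormad1 measured 17.8 and 17.2 RPKM in the female DCKO libraries and 15.0 in the male one, against 6.49 and 12.1 RPKM in female control and 2.58 and 12.4 in male control libraries. The 3 DCKO values lay close together and the 4 control values spread widely below them. The log2 difference of Hormad1 was 1.09 (exact permutation p = 0.0857), and 0.68 without male control 1, its lowest library. Genotypes without overlap and with DCKO higher were thus seen for 2 of 5 genes, against 2.28% of the 11584 genes tested. In limma, a linear model fitted across all genes with sex as a term, Stag3 differed by 1.01 (SE 0.40, unadjusted p = 0.0317, adjusted p = 0.991). For Hormad1 the limma difference was 1.02 (SE 0.61, adjusted p = 0.991).

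The genotypes overlapped in Smc1b, Rec8 and Hormad2 at E10.5. Smc1b, the meiotic partner of SMC3 in the ring, measured 4.50 and 38.6 RPKM in female DCKO and 29.6 in male DCKO libraries, against 12.6 and 25.7 RPKM in female control and 14.5 and 17.0 in male control libraries. Both the lowest and the highest value were thus in DCKO females (exact permutation p = 0.886). Rec8, the meiotic kleisin that closes the ring, measured 0.131 and 10.6 RPKM in female DCKO and 22.8 in male DCKO libraries, against 5.07 and 9.74 RPKM in female control and 0.0333 and 17.2 in male control libraries. It was near 0 in 1 library of each genotype, and the groups overlapped across the whole range (exact permutation p = 0.800). Hormad2, a HORMAD1 relative needed for surveillance of unpaired chromosomes, measured 18.1 and 6.02 RPKM in female DCKO and 5.22 in male DCKO libraries, against 2.67 and 5.09 RPKM in female control and 0.0342 and 6.86 in male control libraries. Its log2 difference of 1.36 was the largest of the 5 genes at this stage, with a log2 SD of 0.89 in DCKO and 1.30 in control libraries and an exact permutation p of 0.229. Without male control 1, its lowest library, the Hormad2 difference was 0.75. The E10.5 libraries with the fewest genes detected at 1 RPKM were male control 1 (9125) and female DCKO 1 (9412), the same pair in which Rec8 was near 0. Female DCKO 1 also had the highest sum of RPKM over all genes, at 1121158 against 669740 to 891066 in the other E10.5 libraries. It held the highest values of Stag3, Hormad1 and Hormad2 and the lowest of Smc1b at this stage. The part of library complexity or of the RPKM sum in the result was not tested.

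By limma 0 of 5 genes passed an adjusted p of 0.05 at E10.5, as did 0 of all 11584 genes tested (percent called 0). At an unadjusted p of 0.05 in the higher direction 1 of 5 passed (Stag3), against 1.49% of all genes. All 5 differences were above 0, with a median of 1.01, compared with 46.8% of genes above 0 and a median of -0.05 over all genes. In bulk RNA, more transcript per cell and more cells with the transcript cannot be told apart.

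**Figure D2:**
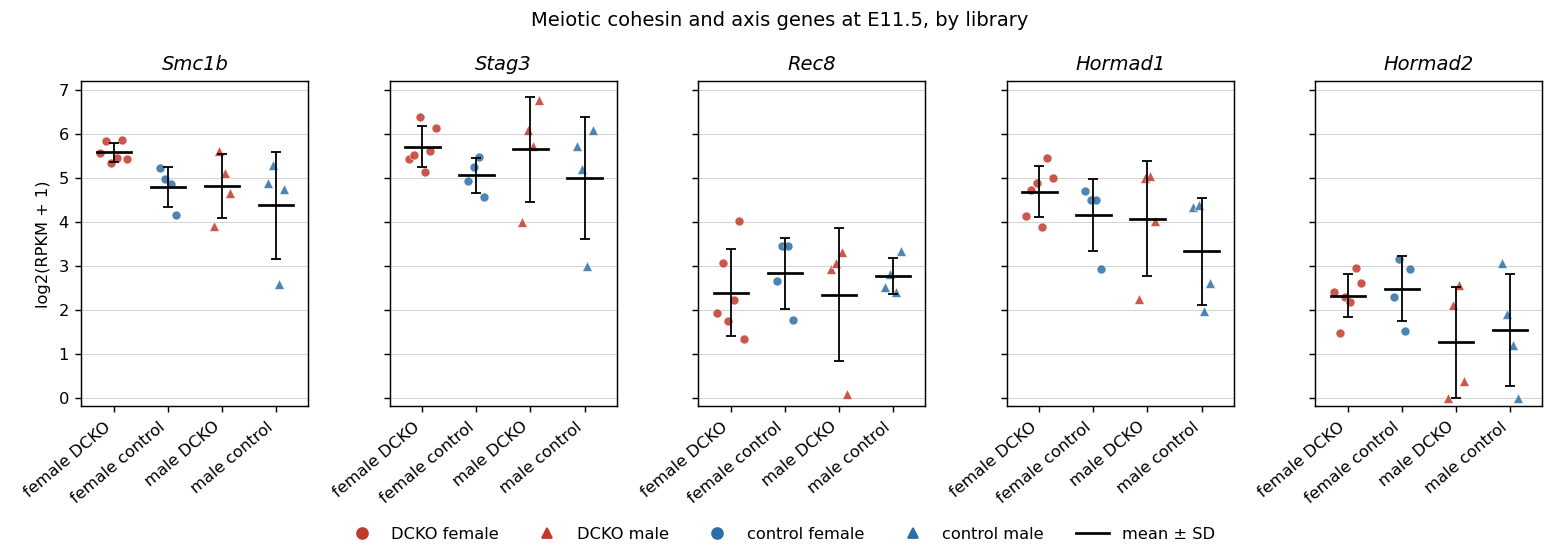
Level of each gene at E11.5 as log2(RPKM + 1), with 1 point per library (circles female, triangles male), DCKO in red left of control in blue within each sex; bars are mean ± SD over 6 female DCKO, 4 female control, 4 male DCKO and 4 male control libraries. For Smc1b all 6 female DCKO libraries lie above all 4 female control libraries, while the male groups overlap in every gene.

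At E11.5 Smc1b, Stag3 and Hormad1 had higher means in DCKO libraries, and Rec8 and Hormad2 had slightly lower ones, but 0 of 5 passed a test over both sexes. Smc1b ran from 13.9 to 56.8 RPKM with a median of 42.5 in DCKO, against 4.96 to 38.1 RPKM with a median of 28.1 in control libraries. Of the 10 DCKO libraries, 7 were above the highest control library, and the 3 below it were all male. On the log2(RPKM + 1) scale Smc1b averaged 5.28 ± 0.60 in DCKO and 4.58 ± 0.88 in control libraries (SD, n = 10 and 8; exact permutation p = 0.0541). Genotypes without overlap and with DCKO higher were seen for 0 of 5 genes, against 0.00789% of all genes. In limma, which averages the female and male differences, Smc1b differed by 0.61 on the log2(RPKM + 1) scale (SE 0.33, adjusted p = 0.912).

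Stag3 ran from 14.9 to 108 RPKM with a median of 50.0 in DCKO, against 7.01 to 66.5 RPKM with a median of 36.3 in control libraries. The groups overlapped, with 4 of 10 DCKO libraries above the highest control library (exact permutation p = 0.124). Its limma difference was 0.65 (SE 0.41, adjusted p = 0.914). Hormad1 ran from 3.76 to 42.9 RPKM with a median of 27.0 in DCKO, against 2.93 to 25.0 RPKM with a median of 19.5 in control libraries. Of the 10 DCKO libraries 6 exceeded every control library, and 4 lay below the control median (exact permutation p = 0.155). The limma difference of Hormad1 was 0.64 (SE 0.44, adjusted p = 0.946).

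For Rec8 and Hormad2 the differences at E11.5 were below 0 and smaller than their errors. Rec8 ran from 0.0667 to 15.3 RPKM with a median of 5.12 in DCKO, against a lowest value of 2.38 RPKM, a median of 5.68 and a mean of 6.46 ± 2.85 RPKM in control libraries (SD, n = 8). Its lowest and its highest libraries were both DCKO (limma difference -0.43, SE 0.48, adjusted p = 0.966). Without male DCKO 4, its lowest library, the limma difference was -0.06. Hormad2 ran from listed at 0 to 6.68 RPKM with a median of 3.73 in DCKO, against listed at 0 to 7.92 RPKM with a median of 3.32 in control libraries. It was listed at 0 in male DCKO 1 and in male control 4 (limma difference -0.22, SE 0.47, adjusted p = 0.991). By limma 0 of 5 genes passed an adjusted p of 0.05 at E11.5, against 0.0237% of the 12667 genes tested. The 5 differences had a median of 0.61 and 3 of 5 were above 0, compared with a median of -0.06 and 45.0% above 0 over all genes.

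The 3 libraries low in PGC markers bore on these tests. Male control 3 held the lowest control value of Smc1b (4.96 RPKM), Stag3 (7.01) and Hormad1 (2.93). Male DCKO 1 held the lowest DCKO value of the same 3 genes, at 13.9, 14.9 and 3.76 RPKM. With all 3 libraries left out, a choice made after seeing the data, the log2 difference was 0.55 for Smc1b (exact permutation p = 0.0166), 0.65 for Stag3 (exact permutation p = 0.0227) and 0.79 for Hormad1 (exact permutation p = 0.0357). In the same 15 libraries 2.55% of the genes tested had an exact permutation p under 0.05 with DCKO higher. Without male control 3 alone the limma difference was 0.31 for Smc1b, 0.32 for Stag3 and 0.41 for Hormad1. With all 3 left out the limma difference was -0.57 for Rec8 and -0.05 for Hormad2. None of the 5 genes passed the adjusted threshold in limma without the 3 libraries. The part of other cell types in the levels was not tested.

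The clearest separation was that of Smc1b in females at E11.5. Smc1b ran from 39.2 to 56.8 RPKM in the 6 female DCKO libraries, against 16.7 to 36.2 RPKM in the 4 female control libraries. Every female DCKO library was above every female control library, a pattern that 0.371% of the genes tested showed. Smc1b averaged 47.3 ± 7.56 RPKM in female DCKO and 27.8 ± 8.17 RPKM in female control libraries (SD, n = 6 and 4). The log2 difference was 0.78, and the exact permutation p of 0.00476 is the smallest that 210 splits can give. Adjusted over all genes tested that p was 0.914, and the limma difference within females of 0.78 (SE 0.45) had an adjusted p of 1.00; 0 of 5 genes were called within females, against 0.00789% of all genes. Leaving out each female library in turn gave differences from 0.57 to 0.92. The PGC marker mean was 5.26 to 6.74 in female DCKO and 6.30 to 6.95 in female control libraries, and summed mesenchyme markers were 8.7 to 385.3 RPKM in female DCKO and 26.2 to 157.2 RPKM in female control libraries. Their part in the Smc1b difference was not tested. In males Smc1b averaged 29.9 ± 14.4 RPKM in DCKO and 24.4 ± 14.0 RPKM in control libraries (SD, n = 4 each; exact permutation p = 0.629). The difference between the sexes was itself small against its error: the interaction term was 0.34 (SE 0.67, limma adjusted p = 0.995), so the effect is not shown to differ between females and males. Leaving out 1 library at a time, this term ran from 0.03 without male control 2 to 0.94 without male control 3.

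Stag3 came next in females, at 53.6 ± 18.6 RPKM in DCKO and 33.2 ± 8.94 RPKM in control libraries (SD, n = 6 and 4; exact permutation p = 0.0619). Of the 6 female DCKO libraries 4 were above the highest female control library of 43.3 RPKM, and the lowest of the 6, at 34.1 RPKM, was female DCKO 4, the one with low PGC markers. Without female DCKO 4 the Stag3 exact permutation p was 0.0317. For the other 3 genes the female groups overlapped, with exact permutation p from 0.281 to 0.690. In males all 5 genes overlapped (0.845% of all genes had every DCKO library above every control library), with exact permutation p from 0.429 to 0.886. Without male control 3 the male difference was -0.15 for Smc1b and -0.01 for Stag3. Across the 5 genes the interaction term ran from -0.23 to 0.34, and 0 of 5 were called, as were 0 of all genes (percent called 0). Among control libraries the female minus male difference of mean log2(RPKM + 1) was 0.06 to 0.93 over the 5 genes, compared with 53.5% of all genes above 0, and 0 of 5 passed the adjusted limma threshold, against 0.00789% of all genes. For Stag3 the mean in RPKM went the other way, at 33.2 in control females and 40.1 in control males. Without the 3 libraries low in PGC markers, of which male control 3 is the control one, the sex difference was -0.60 for Stag3, -0.18 for Smc1b, -0.05 for Rec8, 0.39 for Hormad1 and 0.82 for Hormad2, so no common direction was left.

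The sample titles carry a number shared by some DCKO and control libraries, whose meaning the labels do not give. Within each of the 5 such numbers at E11.5 that hold both genotypes, the mean of Smc1b was higher in DCKO than in control libraries, in 5 of 5, by 0.28 to 1.75 on the log2 scale. Stag3 was higher in DCKO libraries in 5 of 5 numbers as well, by 0.46 to 1.13. Hormad1 was higher in 4 of 5, Hormad2 in 3 of 5 and Rec8 in 1 of 5. Without the 3 libraries low in PGC markers 4 numbers held both genotypes, and Smc1b was higher in DCKO libraries in 4 of 4, by 0.28 to 0.61, and Stag3 in 4 of 4, by 0.46 to 1.13. At E10.5 Stag3 was higher in DCKO libraries in both of the 2 numbers with both genotypes, by 0.48 and 1.83, and Hormad1 by 0.36 and 1.33. Each number holds only 2 to 4 libraries, and in some the sexes are not balanced. The share of all genes higher in DCKO libraries in every number was not computed, so how unusual these counts are is unknown.

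Each meiotic subunit was next set against its mitotic counterpart within the same library, as a log2 ratio with 1 RPKM added to each side, in which library scaling largely cancels. At E10.5 the ratio of Stag3 to Stag1 plus Stag2 was 2.49 and 0.07 in the female DCKO libraries and 0.07 in the male one, against -1.53 and -0.83 in female control and -1.92 and -0.57 in male control libraries. Stag3 thus exceeded its summed counterparts, in all 3 DCKO libraries, by little in 2 of them, and stood below them in all 4 control libraries. The means were 0.88 ± 1.40 in DCKO and -1.21 ± 0.62 in control libraries (SD, n = 3 and 4), a difference of 2.09. The exact permutation p of 0.0286 is the smallest that 35 splits allow, and adjusted over the 6 ratio tests it was 0.172. Without female DCKO 1 the difference was 1.29, the lowest of the 7 values with 1 library left out; 6 libraries cannot reach an exact p of 0.05.

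The means of both counterparts were lower in DCKO libraries at E10.5, whereas that of Stag3 was higher. Stag1 averaged 39.4 ± 24.8 RPKM in DCKO and 71.0 ± 20.6 RPKM in control libraries at E10.5 (SD, n = 3 and 4; exact permutation p = 0.0571). Female DCKO 1, the library with the highest Stag3 ratio, held 11.8 RPKM of Stag1. The other DCKO libraries held 46.7 and 59.8, and control libraries 58.2 to 102, so the groups overlapped. Stag2 averaged 2.74 ± 0.841 RPKM in DCKO and 9.52 ± 5.08 RPKM in control libraries (SD, n = 3 and 4; exact permutation p = 0.0571), with no overlap. Every DCKO library below every control library was seen for 2.87% of genes at E10.5. At E11.5 the Stag3 ratio averaged -0.41 ± 0.92 in DCKO and -0.99 ± 0.98 in control libraries (SD, n = 10 and 8; exact permutation p = 0.219). It was above 0 in 3 of 10 DCKO and 1 of 8 control libraries.

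**Figure D3:**
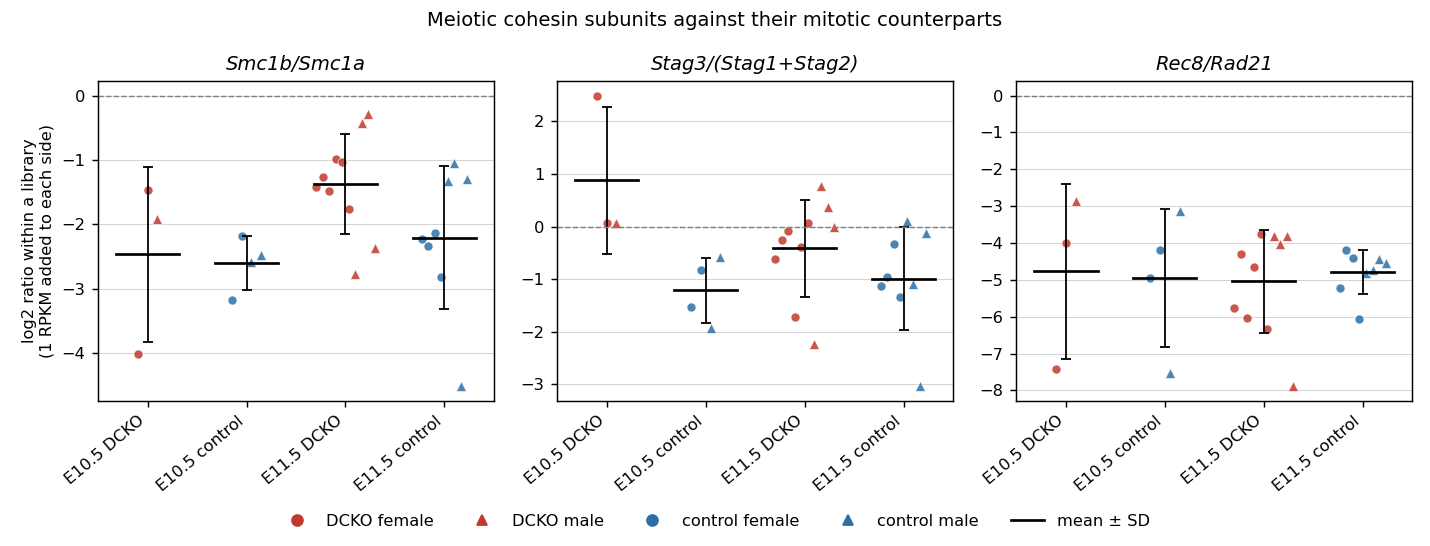
Log2 ratio of each meiotic cohesin subunit to its mitotic counterpart within a library (1 RPKM added to each side), with 1 point per library, DCKO left of control at each stage; bars are mean ± SD and the dashed line marks equal levels. At E10.5 the Stag3 ratio is above 0 in all 3 DCKO libraries and below 0 in all 4 control libraries, whereas the Rec8 ratio stays far below 0 in every library; the vertical scales differ between panels.

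Smc1a transcripts exceeded those of Smc1b throughout. The Smc1b to Smc1a ratio was below 0 in every library of both stages. At E11.5 it averaged -1.38 ± 0.78 in DCKO and -2.21 ± 1.11 in control libraries (SD, n = 10 and 8; exact permutation p = 0.0763). Male control 3 held the lowest ratio, at -4.51, and without that library the genotype difference was 0.50. Smc1a averaged 144 ± 24.5 RPKM in female and 88.0 ± 31.8 RPKM in male control libraries (SD, n = 4 each). This sex difference was 0.75 in limma (SE 0.33, unadjusted p = 0.0361) and did not pass the adjusted threshold. Its part in the ratio over both sexes was not tested. In females the Smc1b to Smc1a ratio ran from -1.76 to -0.98 in DCKO and from -2.81 to -2.13 in control libraries, without overlap. It holds the same female Smc1b values as above, and the share of other gene ratios without overlap was not computed. In males the groups overlapped, at -2.77 to -0.29 in DCKO and -4.51 to -1.04 in control libraries. At E10.5 the genotype difference in this ratio was 0.15 (exact permutation p = 0.886). The Rec8 to Rad21 ratio was the lowest of the 3, at -5.04 ± 1.40 in DCKO and -4.80 ± 0.60 in control libraries at E11.5 (SD, n = 10 and 8; exact permutation p = 0.673). The E10.5 difference in the Rec8 ratio was 0.19 (exact permutation p = 0.800).

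The 5 mitotic core genes mostly had differences below 0. At E10.5, 0 of 5 differences between DCKO and control were above 0, with a median of -0.57, and at E11.5 1 of 5 was (Stag2, 0.29), with a median of -0.18. Over all genes 46.8% were above 0 at E10.5 and 45.0% at E11.5. No core gene passed the adjusted limma threshold at either stage, against 0% of all genes at E10.5 and 0.0237% at E11.5. Smc3, the subunit common to both kinds of ring, averaged 149 ± 83.4 RPKM in DCKO and 195 ± 45.1 RPKM in control libraries at E10.5 (SD, n = 3 and 4; exact permutation p = 0.400). The E11.5 means of Smc3 were 200 ± 60.4 RPKM in DCKO and 220 ± 56.5 RPKM in control libraries (SD, n = 10 and 8; exact permutation p = 0.474).

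Other genes of the meiotic axis were covered by a list of partners, of which 9 were in the tables and 6 passed the minimum of 1 RPKM. At E11.5 4 of 6 had differences above 0, with a median of 0.48, against 45.0% of all genes and a median of -0.06. The adjusted threshold was passed by 0 of 6, against 0.0237% of all genes. Trip13, the ATPase that removes HORMAD proteins from paired axes, averaged 67.5 ± 22.4 RPKM in DCKO and 39.2 ± 16.1 RPKM in control libraries at E11.5 (SD, n = 10 and 8). Its limma difference was 0.93 (SE 0.34, unadjusted p = 0.0130, adjusted p = 0.902), and 9 of 10 DCKO libraries were above the control median. The Trip13 difference was 0.34 in females and 1.53 in males, with an interaction term of -1.20 (SE 0.68, limma adjusted p = 0.995). Without the 3 libraries low in PGC markers the limma difference over both sexes was 1.08 for Trip13 and 1.31 for Sycp3, neither past the adjusted threshold. At E10.5 the Trip13 difference was -0.60 (SE 0.39, limma adjusted p = 0.991). Sycp3, a structural protein of the axis, had a difference of 1.05 at E11.5 (SE 0.62, limma adjusted p = 0.912) and 0.73 at E10.5 (SE 0.98, limma adjusted p = 0.991). Rec114, a factor for meiotic DNA breaks, averaged 38.2 ± 33.3 RPKM in DCKO and 5.99 ± 6.27 RPKM in control libraries at E10.5 (SD, n = 3 and 4; exact permutation p = 0.0857). The groups did not overlap, as for 2.28% of genes with DCKO higher. Female DCKO 1 held 76.6 RPKM of Rec114, the other DCKO libraries 19.1 and 18.7, and the highest control library 12.2. In limma Rec114 differed by 2.75 at E10.5 (SE 1.02, unadjusted p = 0.0249, adjusted p = 0.991) and by 0.50 at E11.5 (SE 0.67, adjusted p = 0.972). Mei4, a partner of REC114, differed by 0.46 at E11.5, which averages 1.25 in females (SE 0.49) and -0.34 in males (SE 0.54). The interaction term of Mei4 was 1.59 (SE 0.73, limma adjusted p = 0.995). Sgol2a, which protects cohesin at centromeres, differed by -0.27 at E11.5 and -0.71 at E10.5. None of these passed the adjusted limma threshold. Over the partners at E10.5, 3 of 6 were above 0, with a median of 0.14, against 46.8% of all genes and a median of -0.05.

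None of the genes that load, release or modify cohesin passed the adjusted limma threshold at either stage. At E11.5 3 of 13 regulators had differences above 0 (Esco2, Sgol1 and Mau2), with a median of -0.17, against 45.0% of all genes above 0 and a median of -0.06. At E10.5 3 of 12 did, with a median of -0.25, against 46.8% of all genes and a median of -0.05. Esco2, which acetylates SMC3 during replication, had a difference of 0.74 at E11.5 (SE 0.40, limma adjusted p = 0.909). Pttg1 (securin) and Espl1 (separase, the protease that opens the ring) had differences of -0.80 and -0.62 at E11.5. Wapal, which releases cohesin from chromatin, differed by -0.35 at E11.5 and -0.53 at E10.5. At E10.5 the differences were -1.19 for Espl1, -0.55 for Cdca5 (sororin, which opposes release) and -0.42 for Nipbl (the cohesin loader).

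**Figure D4:**
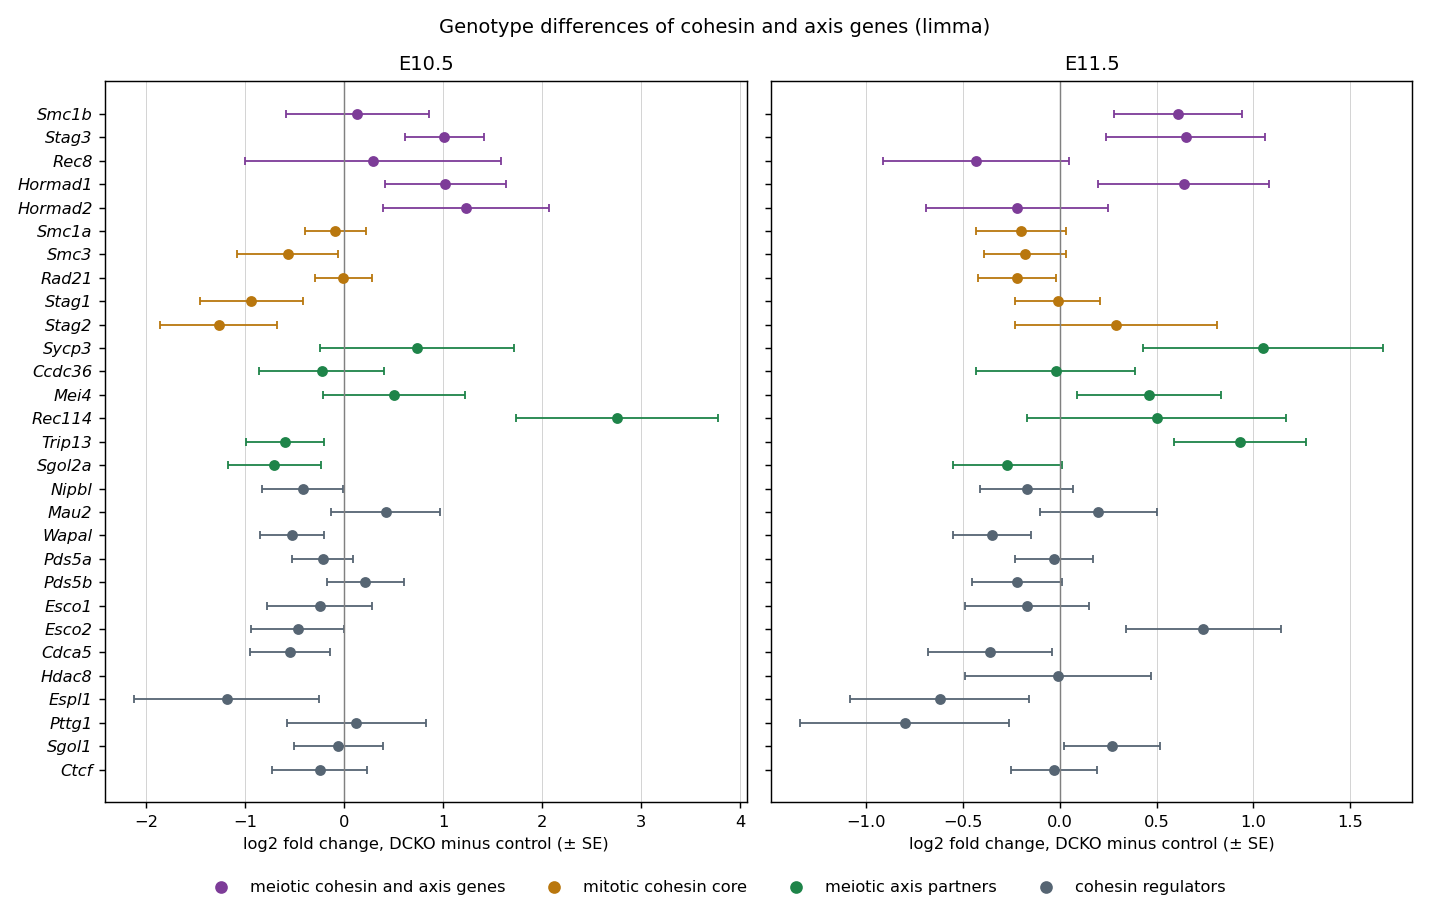
Limma log2 fold change, DCKO minus control, with its standard error, for the meiotic cohesin and axis genes, the mitotic core, the axis partners and the cohesin regulators at E10.5 (left) and E11.5 (right); the horizontal scales differ. All 5 meiotic cohesin and axis genes lie right of 0 at E10.5 and 3 of 5 at E11.5, while 0 of 5 and 1 of 5 mitotic core genes do.

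The axis genes fell into more and less closely matched pairs across the 18 E11.5 libraries, which differ in PGC marker level as well as in genotype. Smc1b and Hormad1 had a Pearson r of 0.84 on log2(RPKM + 1), the fourth highest among the 12666 other genes compared with Smc1b (rank 4), and 0.80 after the mean of each sex and genotype group was removed. Smc1b and Stag3 had r = 0.71, and Stag3 and Hormad1 r = 0.65. Over the 15 libraries without the 3 low in PGC markers, r was 0.74 for Smc1b and Hormad1. It was 0.16 for Smc1b and Stag3 and 0.17 for Stag3 and Hormad1, so at E11.5 the likeness of Stag3 to both rested on those 3 libraries. Over the 7 E10.5 libraries r with Stag3 was 0.76 for Hormad1, 0.73 for Hormad2 and -0.12 for Smc1b. Hormad1 and Hormad2 had r = 0.60 (0.45 without the 3 libraries), and 0.93 over the 7 E10.5 libraries. Rec8 was apart from the other 4 at E11.5, with r from -0.23 to 0.16, and from -0.39 to 0.32 without the 3 libraries. At E10.5 its r ran from 0.08 with Stag3 to 0.74 with Smc1b. Smc1b and Hormad1 did not keep their likeness at E10.5, where r was 0.13.

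For each gene the 3 most alike genes at E11.5 were also recorded. For Smc1b these were Hells (r = 0.90), a chromatin remodeller needed for DNA methylation, Stk31 (0.85), a germ cell kinase-like gene, and Rps27l (0.84). Over the 7 E10.5 libraries the r with Hells was 0.70, with Stk31 0.08 and with Rps27l -0.85. For Hormad1 they were Rbm44 (0.89), a germ cell RNA-binding protein gene, Rpl7 (0.87) and Stk31 (0.86), with E10.5 values of 0.87, -0.22 and 0.92. Stag3 was most like Atp5l (0.89), Rpl34-ps1 (0.89) and Rps27l (0.86), Rec8 like Cyb561 (0.86), Atp6v1f (0.80) and Fam20b (0.79), and Hormad2 like Ccdc12 (0.87), Acot9 (0.86) and 2310033P09Rik (0.86). Over the 7 E10.5 libraries r was 0.90 for Cyb561 and between -0.84 and 0.51 for the other 8 of these genes. Without the 3 libraries low in PGC markers r was 0.51 to 0.76 for the genes named with Smc1b and Stag3, 0.73 to 0.79 for those named with Hormad1, and 0.81 to 0.91 for those named with Rec8 and Hormad2. The libraries differ in PGC marker level and their depth is unknown, so these values describe likeness across samples only.

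Of the 5 genes, 3 share genomic positions with other annotated genes in RefSeq: Smc1b with Fam118a and Gm10923, Stag3 with Gal3st4 and Gpc2, and Hormad1 with the long non-coding RNA gene Gm40097. Whether the counting used strand is not stated, so reads of such neighbours may be included in their values. No overlapping gene was annotated for Rec8 or Hormad2.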

How the data were processed

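RNA from sorted germ cells was amplified before library preparation, per the labels' protocols. The authors deposited 1 table of RPKM values per stage, with 24318 genes. Per the submitters' processing notes, the build was mm9 and the tools were Cuffdiff, Cufflinks (version 2.2.1) and TopHat2 (version 2.1.0). The gene models, the use of strand and any filters are not stated. Low values did not fall on whole-read steps, so depth is unknown and no counting interval is given. An exact 0 can be a failed estimate: among genes with a median of 20 RPKM or more, 79 of 3595 at E10.5 and 104 of 3491 at E11.5 had a 0 in some library. No pair of libraries was identical (highest r 0.831 and 0.878 in the 2 tables).

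The 2 stages were tested separately, because a common scaling of the tables is not stated. RPKM values were tested as log2(RPKM + 1) with limma version 3.58.1 (R version 4.3.3, intensity trend), on genes that averaged 1 RPKM or more in the table (11584 and 12667 genes), with Benjamini-Hochberg adjustment over all of them. At E11.5 the model had the 4 sex by genotype group means, with the genotype effect averaged over both sexes. At E10.5 it had genotype and sex as terms. Fold changes on this scale understate the change of low genes. Single values were compared by two-sided exact permutation of the genotype labels (43758 arrangements at E11.5, 35 at E10.5, 210 in females, 70 in males) with numpy 2.4.6 and pandas 2.3.3. The permutations over a whole stage pooled both sexes, so unequal shares of females in DCKO and control libraries can enter those differences. The code was tested on simulated data. The rule for named genes took the 5 axis genes, Dnmt1, the mitotic core, up to 4 partners and 4 regulators with the smallest limma p at each stage, and the 3 genes most alike to each axis gene. The genes and lists were chosen with earlier results of these data known. Alternatives were other pseudocounts (0.1 and 0.5) and filters (none, or a mean of 5 RPKM), other scalings, library weights, a replicate block, 1 sex alone, and leaving out libraries.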

Additional observations from a re-analysis of the deposited data

Results flagged for a closer look

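Within the sex and genotype groups of 4 to 6 libraries at E11.5, 2 of 20 gene and group sets held a library far from the others, and chance flags about 1 in 20. Hormad1 was 6.66 RPKM in female control 4, against 21.6 to 25.0 RPKM in the other 3 female control libraries. Without that library the female log2 difference of Hormad1 was 0.11. Female control 4 was also the lowest female control library for Smc1b (16.7 RPKM) and Stag3 (22.8 RPKM), while its PGC markers (mean log2 of 6.64) were in the range of the other female controls. Rec8 was 0.0667 RPKM in male DCKO 4, against 6.55 to 8.86 RPKM in the other 3 male DCKO libraries. Without male DCKO 4 the male log2 difference of Rec8 was 0.33. Male DCKO 4 had the fewest genes at 1 RPKM or more among the DCKO libraries (8607) and the highest Stag3 level of all libraries (108 RPKM).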

How the results depend on the processing

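Of 1024 values recomputed under an alternative, 934 kept their direction, their side of the threshold and, for counts, about their size. A fall from 3 genes called to 2 was held as kept. Many values had little room to change, such as limma adjusted p-values far above the threshold and exact tests on 6 libraries. This total is therefore no measure of robustness. The cause of each change below was not tested. No axis gene was called by limma under any alternative run. The number of genes called within females was 1, and 2 with a pseudocount of 0.1, with no filter or with 1 sex alone, and 4 with library weights. Library weights also gave 5 genes for the E11.5 genotype comparison in place of 3, and 22 for control females minus control males in place of 1. That count was 2 with no filter and 2 without the 3 libraries low in PGC markers, where the count within males was 1 in place of 4. A replicate block gave 2 genes within females and 2 within males, and a block by title number gave 1 within males. Under the replicate block Smc1b differed by 0.60 and Stag3 by 0.61 at E11.5, with no call changed. The numbers are not shown to pair the libraries. At E11.5 the deviations of DCKO and control libraries correlated from -0.165 to 0.150 where they share a replicate number and a sex. Where they share a title number the range was -0.023 to 0.490. Libraries that share no number were not compared, so these ranges cannot show whether the numbers pair libraries. The 0.490 was between female DCKO 4 and male control 3, both low in PGC markers. The block by title number turned the E10.5 limma difference of Rec8 to -0.64.

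Quantile normalization turned Hormad2 at E11.5 to 0.08 in limma and 0.14 as a mean difference, and in males Hormad2 to 0.26 and Rec8 to 0.05. Under median-of-ratios scaling the exact permutation p fell below 0.05 for Smc1b at E11.5 (0.72, p = 0.0366) and for Stag3 in females (0.68, p = 0.0476). Without the 3 libraries low in PGC markers, chosen after seeing the data, the exact permutation p was also below 0.05 for Smc1b (0.55), Stag3 (0.65), Hormad1 (0.79), the Stag3 ratio (0.68, p = 0.0230) and Stag3 in females (0.76, p = 0.0317), and Hormad2 in males was 0.03.

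Leaving out 1 library at a time gave 0 to 11 genes called at E10.5 (11 without male DCKO 1), 2 to 5 at E11.5, 1 to 2 within females, 1 to 4 within males, 0 to 1 for the interaction and 1 to 2 between control sexes. Limma differences ran from -0.46 to 0.96 for Smc1b and from -1.16 to 1.49 for Rec8 at E10.5, and from -0.61 to -0.06 for Rec8 and from -0.47 to 0.04 for Hormad2 at E11.5. As mean log2 differences at E11.5, Smc1b ran from 0.40 to 0.84 (past 0.05 by exact permutation without male DCKO 1, male DCKO 4, female control 1 or male control 2), Stag3 from 0.37 to 0.84 and Hormad1 from 0.44 to 0.94 (both past 0.05 without male DCKO 1), and Hormad2 from -0.40 to 0.10. In these E11.5 runs the exact permutation p reached 0.137 for Smc1b, 0.291 for Stag3 and 0.332 for Hormad1. The E11.5 ratios ran from 0.50 to 1.00 for Smc1b, where 4 of 18 values passed 0.05, and from -0.42 to 0.08 for Rec8. At E10.5 the mean differences ran from -0.46 to 0.96 for Smc1b and from -0.71 to 1.49 for Rec8, for Hormad1 from 0.68 to 1.32 and for Hormad2 from 0.75 to 1.73 (both lowest without male control 1), and the ratios from -0.36 to 0.92 for Smc1b, from 1.29 to 2.50 for Stag3 and from -0.76 to 1.52 for Rec8. In females Stag3 ran from 0.49 to 0.78 (past 0.05 without female DCKO 4) and Hormad2 from -0.48 to 0.07. In males the ranges were -0.15 to 0.75 for Smc1b, -0.01 to 1.20 for Stag3, -0.74 to 0.33 for Rec8 and -0.79 to 0.23 for Hormad2. The 3 against 4 libraries at E10.5, unknown depth and amplified RNA limit what these values can show.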
